A study of Mus musculus with 10 samples.

Results

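The fucosylation genes are those whose products make, move or attach the sugar fucose. They were taken by name, with earlier results of these data known. They are the fucosyltransferase genes Fut1, Fut2, Fut4, Fut8, Fut10 and Fut11, the protein O-fucosyltransferase genes Pofut1 and Pofut2, and the GDP-fucose supply genes Gmds and Slc35c1. All 10 were among the 24062 genes counted in the files, and 9 of the 10 were among the 13882 genes that had at least 5 counts in every library and could be tested. The study asked how interleukin-23 (IL-23) made in the skin alters the neonatal pancreas. RNA was sequenced from the whole pancreas of C57BL/6 mice at postnatal day 5 (P5), with 5 wild type (WT) libraries and 5 KSR23 libraries (genotype KSR23+). In KSR23 mice an IL-23 cassette, R23, was switched on by a Cre recombinase driven by the keratin 14 (K14) promoter, so the cytokine was made by keratinocytes and the pancreas itself was not the targeted tissue. The WT mice were control littermates, and each library came from 1 mouse.

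Fucose is carried to glycans as GDP-fucose. The de novo route starts from GDP-mannose, on which GMDS and then the enzyme encoded by Tsta3 act, and a salvage route through FUK and FPGT uses free fucose. SLC35C1 brings GDP-fucose into the Golgi, where FUT1, FUT2, FUT4 and FUT8 attach it to glycans. FUT1 and FUT2 make the same terminal linkage, the H antigen, and FUT2 is the form known from secretory epithelia, where interleukin-22 induces it in the gut. FUT8 adds the core fucose of N-glycans, FUT4 makes Lewis x-type structures, and POFUT1 and POFUT2 work in the endoplasmic reticulum on EGF-like repeats (Notch receptors among them) and thrombospondin repeats.

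The first question was which of these genes differed in RNA level between KSR23 and WT pancreas. Of the 9 genes tested, Gmds and Slc35c1 rose, Fut1 fell and 6 did not pass the test, by the quasi-likelihood test of edgeR, Benjamini-Hochberg adjusted over all 13882 genes, at an adjusted p under 0.05. Of all genes tested, 31.0% were called, 16.2% as higher and 14.8% as lower, so a count of 3 among 9 is close to the background. The median log2 fold change of the 9 genes was 0.09, beside -0.01 for all genes tested. Scaling by library size alone moved the calls over all genes from 2250 higher and 2049 lower to 3075 higher and 1161 lower, and the same 3 members were called in the same directions. The remaining member, Fut2, fell below the count minimum and was compared separately; it was higher in every KSR23 library than in any WT library.

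The 3 genes called are shown here with the part of their RefSeq promoter window (GRCm38.p6) that lies in no exon of the gene in GENCODE M21, because GENCODE places transcript starts of all 3 genes further upstream than RefSeq does. The Gmds stretch is chr13:32338741-32338794 on the minus strand, the Slc35c1 stretch is chr2:92460539-92460768 on the minus strand, and the Fut1 stretch is chr7:45617495-45617605 on the plus strand. Capitals mark matches on either strand to the GC box GGGCGG, the letters of an SP1-type site.
Gmds: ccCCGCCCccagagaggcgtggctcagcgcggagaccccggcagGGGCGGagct
Slc35c1: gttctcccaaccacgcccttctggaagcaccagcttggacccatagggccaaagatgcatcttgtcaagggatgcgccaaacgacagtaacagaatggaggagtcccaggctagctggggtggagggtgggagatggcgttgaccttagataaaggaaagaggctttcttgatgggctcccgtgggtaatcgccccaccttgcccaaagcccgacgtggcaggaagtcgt
Fut1: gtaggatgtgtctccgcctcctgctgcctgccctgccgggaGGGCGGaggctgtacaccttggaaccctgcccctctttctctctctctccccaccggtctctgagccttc
Over the whole 250 bases before the RefSeq start, Gmds had 5 GC-box matches, overlapping ones included, Fut1 had 2 and Slc35c1 had 0. RefSeq promoter entries matched 8 of the 10 genes, with 12 windows in all, and 5 of the 12 windows, each of another gene, held a GC box, as did 32.7% of all 32851 RefSeq promoters. The letters CCAAT were found in 2 of the 12 windows, of Fut8 and Fut11, and in 33.8% of all promoters. None of the 12 windows held TATAAA, found in 12.4% of all promoters, or TTCNNNGAA, the letters of a STAT site, found in 7.02%. A match describes letters alone and says nothing of binding.

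Gmds encodes GDP-mannose 4,6-dehydratase, the first enzyme of de novo GDP-fucose synthesis, and lies at chr13:31819579-32338740 (minus strand, GRCm38). Its level in the 5 WT libraries was 24.1, 27.5, 18.7, 23.9 and 21.2 CPM (TMM-scaled counts-per-million), and in the 5 KSR23 libraries 32.5, 31.8, 28.0, 31.0 and 37.6 CPM. Every KSR23 library lay above every WT library, and it was the only member among the 9 tested whose groups did not overlap, a pattern seen in 19.4% of all genes tested. The mean was 32.2 ± 3.48 CPM in KSR23 and 23.1 ± 3.32 CPM in WT (SD, n = 5 each). The log2 fold change was 0.48 (SE 0.100), a 1.40-fold rise with a 95% interval of 0.27 to 0.69 on the log2 scale and an adjusted p of 0.00135 by edgeR.

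Slc35c1, at chr2:92452764-92460538 on the minus strand, encodes the main Golgi transporter of GDP-fucose. Its WT libraries had 19.7, 25.3, 19.1, 19.3 and 15.6 CPM, and its KSR23 libraries had 29.1, 23.4, 26.7, 25.6 and 33.9 CPM. The groups overlapped only at WT replicate 2 and KSR23 replicate 2. The log2 fold change was 0.49 (SE 0.117), again 1.40-fold, with an interval of 0.24 to 0.73 and an adjusted p of 0.00429 by edgeR. KSR23 replicate 5 was the highest library for both supply genes.

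**Figure D1:**
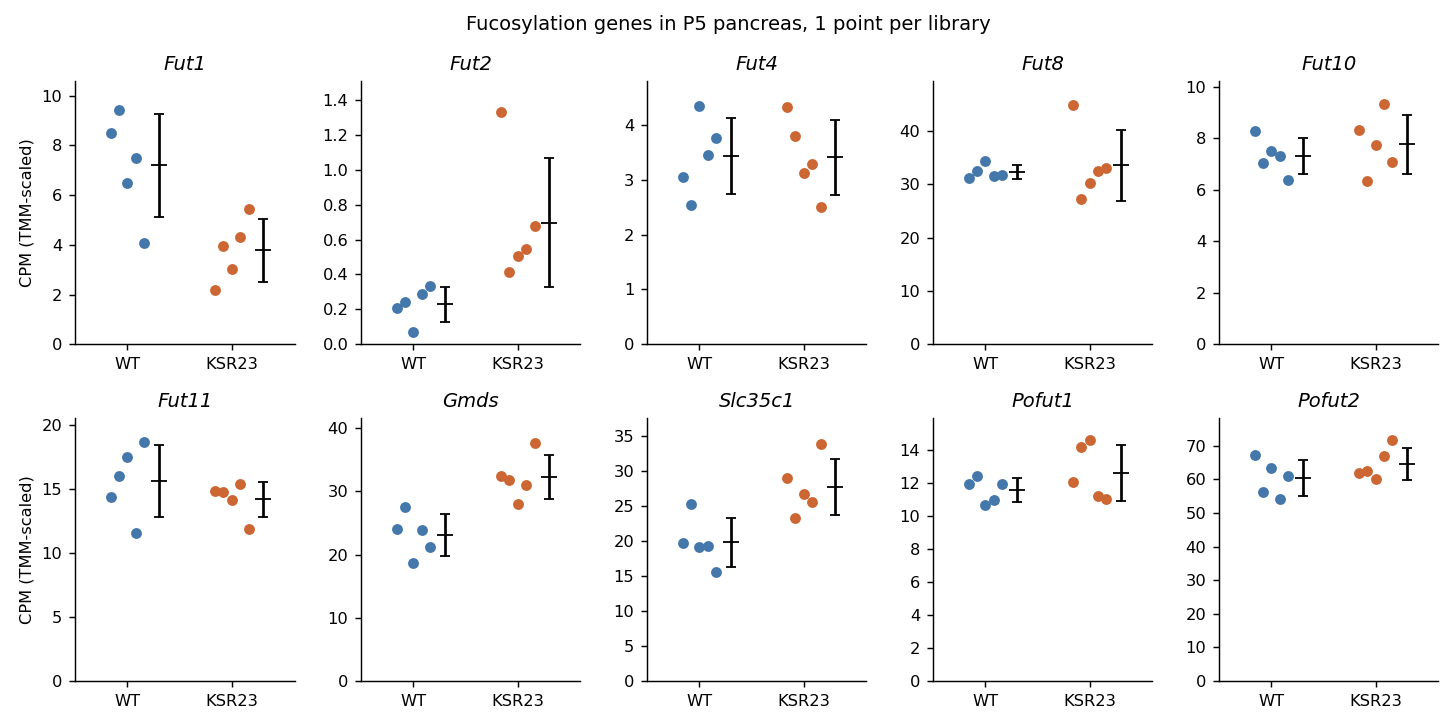
TMM-scaled counts-per-million (CPM, linear axes from 0, a separate scale for each gene) of the 10 fucosylation genes in P5 pancreas, with 1 point per library in replicate order, WT in blue and KSR23 in orange, and the mean ± SD (n = 5) in black beside each group. Gmds and Fut2 show no overlap between groups, Slc35c1 and Fut1 overlap at single libraries, and the groups of the other 6 genes overlap broadly.

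Fut1 and Fut2 lie near each other on chromosome 7. Fut1 is at chr7:45617289-45621059 on the plus strand and Fut2 is at chr7:45648591-45666394 on the minus strand. Their levels moved in opposite directions. Fut1 had 8.48, 9.44, 6.50, 7.49 and 4.06 CPM in the WT libraries and 2.16, 3.94, 3.02, 4.31 and 5.45 CPM in the KSR23 libraries. WT replicate 5 was low and lay within the KSR23 range, and the other 4 WT libraries were above all KSR23 libraries. Its log2 fold change was -0.91 (SE 0.229), so the KSR23 level was 0.531 of the WT level, with an interval of -1.39 to -0.43 and an adjusted p of 0.00578 by edgeR.

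Fut2 was counted 6, 7, 2, 9 and 9 times in the WT libraries and 53, 14, 9, 22 and 38 times in the KSR23 libraries. Scaled, these were 0.210, 0.240, 0.0702, 0.290 and 0.335 CPM in WT and 1.33, 0.415, 0.503, 0.548 and 0.679 CPM in KSR23. The groups did not overlap, and KSR23 replicate 1 stood well above the rest. The mean was 0.696 ± 0.369 CPM in KSR23 and 0.229 ± 0.101 CPM in WT (SD, n = 5 each), 3.03-fold higher in KSR23, with p = 0.00794 in a two-sided exact permutation test, the smallest p that the 252 splits of 10 libraries allow. Among the 868 genes below the count minimum whose mean count was within 2 times that of Fut2, 8.99% had every KSR23 library above every WT library. The floor of a library, taken as 3 counts, was between 0.0536 and 0.168 CPM, and WT replicate 3 was under its own floor for Fut2. With no filter, a comparison added after the data were seen in which Fut2 could be fitted, its adjusted p was 0.0147 by edgeR. Fut2 also passed edgeR's default filter, but through its level in the KSR23 libraries, so the fit after that filter is no separate support. Of the 75-base windows of the Fut2 transcript, 96.2% occurred in no other annotated gene, and the rest were shared with the neighbouring Sec1, which had at most 6 counts in any library.

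The ratio of Fut2 to Fut1 within a library does not depend on how the library is scaled. Its log2 value, with a prior count of 2 added to each gene, was -4.93, -4.94, -5.55, -4.41 and -3.33 in WT and -0.68, -3.08, -2.35, -2.87 and -2.94 in KSR23. Every KSR23 library had the higher ratio, although Fut2 had fewer counts than Fut1 in all 10 libraries. The means were -2.38 ± 0.992 and -4.63 ± 0.830 (SD, n = 5 each), a difference of 2.25, with p = 0.00794 in a two-sided exact permutation test. Fut2 and this ratio were the 2 values tested in this way, and both had an adjusted p of 0.00794 by permutation. The ratio is made of the same counts as the Fut1 and Fut2 comparisons above, so its p is not separate support for them.

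**Figure D2:**
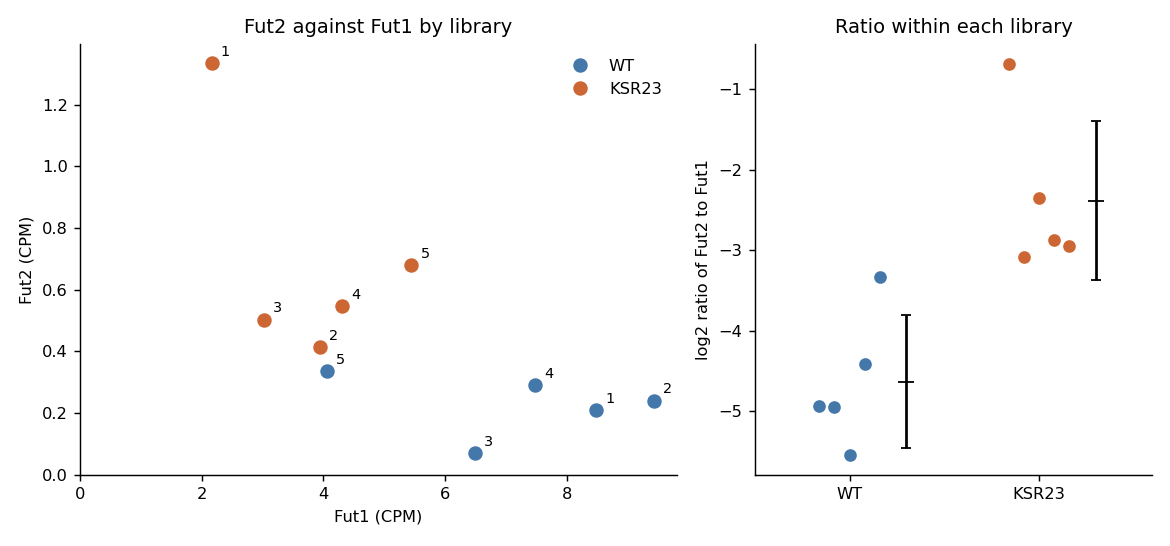
Left, TMM-scaled CPM of Fut2 against Fut1 with 1 point per library and its replicate number, WT in blue and KSR23 in orange. Right, the log2 ratio of Fut2 to Fut1 in each library, with the mean ± SD (n = 5) in black; the WT ratios run from -5.55 to -3.33 and the KSR23 ratios from -3.08 to -0.68, without overlap.

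The 6 members that did not pass the test all encode enzymes that attach fucose. Of the 7 fucosyltransferase genes tested, 1 was called, Fut1, beside 31.0% of all genes tested. Fut8, the core fucosyltransferase gene, had 31.1 to 34.5 CPM in WT and 27.4 to 44.9 CPM in KSR23, where replicate 1 was the highest, and its log2 fold change was 0.06 with a 95% interval of -0.16 to 0.28. Pofut1 had 10.7 to 12.4 CPM in WT and 11.0 to 14.6 CPM in KSR23, and its log2 fold change was 0.12 (-0.10 to 0.34). Pofut2 had 54.2 to 67.4 CPM in WT and 60.1 to 71.7 CPM in KSR23, with a log2 fold change of 0.10 (-0.06 to 0.25). The intervals of these 3 genes, like those of Fut4, Fut10 and Fut11 below, did not reach the 1.40-fold (0.48 on the log2 scale) rise measured for Gmds. The Gmds interval itself began at 0.27, within the intervals of Fut8, Pofut1, Fut4 and Fut10, and a difference from Gmds was not tested.

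Fut4 had 2.54 to 4.36 CPM in WT and 2.50 to 4.33 CPM in KSR23, a log2 fold change of -0.01 with a wide interval of -0.40 to 0.38, and its sign changed to 0.09 when counts were scaled by library size alone. Fut10 and Fut11 are distant relatives of the other fucosyltransferases that reside in the endoplasmic reticulum. Fut10 had 6.37 to 8.27 CPM in WT and 6.34 to 9.31 CPM in KSR23, with a log2 fold change of 0.09 (-0.17 to 0.35). Fut11 had 11.6 to 18.7 CPM in WT and 11.9 to 15.4 CPM in KSR23, with a log2 fold change of -0.14 (-0.39 to 0.11). The adjusted p of the 6 genes ran from 0.341 to 0.973 by edgeR. Their intervals leave room for changes in either direction, so the p-values do not show equal levels.

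Levels of different genes were compared per kilobase of exon (CPM divided by the length of the union of annotated exons), as a description. In WT, Pofut2 came first with 7.67 ± 0.679 CPM per kilobase, then Gmds with 6.89 ± 0.990 and Slc35c1 with 6.05 ± 1.07 (SD, n = 5 each), and the ranges of these neighbours overlapped. Fut8 (4.09 ± 0.166), Fut11 (3.67 ± 0.655) and Fut1 (2.58 ± 0.742) followed, each overlapping the next, and Fut10 (1.46 ± 0.138) overlapped with Fut1. Pofut1 (1.17 ± 0.0747), Fut4 (0.843 ± 0.169) and Fut2 (0.0422 ± 0.0186) were lowest and did not overlap with their neighbours. In KSR23, Gmds came first with 9.61 ± 1.04 CPM per kilobase, then Slc35c1 with 8.47 ± 1.23 and Pofut2 with 8.20 ± 0.595, still with overlap between neighbours, and Fut1 (1.36 ± 0.450) came after Fut10 (1.55 ± 0.228) with overlap. The order depended on the length used. Per kilobase of the longest coding transcript, a length chosen after the data were seen, Gmds came first and Fut8 second in both groups, with 11.5 and 9.09 in WT and 16.1 and 9.46 in KSR23, and Fut4 and Fut2 stayed lowest.

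The remaining genes of GDP-fucose supply did not all move with Gmds and Slc35c1. Of the 6 genes of the list, Gmds and Slc35c1 included, 3 rose and 2 fell, beside 16.2% of all genes tested called higher and 14.8% lower, with a median log2 fold change of 0.21. Tsta3, whose product completes the de novo route after GMDS, had 54.5 to 64.5 CPM in WT and 62.8 to 78.7 CPM in KSR23, a log2 fold change of 0.30 (SE 0.0739) with an adjusted p of 0.00549 by edgeR. The salvage genes differed from this. Fuk had a log2 fold change of 0.13 (-0.17 to 0.43) and did not pass the test, and Fpgt fell by 0.43 (SE 0.150, adjusted p = 0.0384 by edgeR). Slc35c2, which encodes a relative of SLC35C1 linked to Notch fucosylation, fell by 0.19 on the log2 scale (SE 0.0609, adjusted p = 0.0217 by edgeR) without overlap between groups. The calls of Fpgt and Slc35c2 were lost in 8 and 4 of 19 other ways of running the comparison, which include scaling by library size alone (log2 fold changes of -0.33 and -0.10) and leaving out KSR23 replicate 2 (-0.43 and -0.17).

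Of the 5 genes that make the precursor GDP-mannose, 3 rose, none fell, and the median log2 fold change was 0.38. Mpi, which interconverts fructose 6-phosphate and mannose 6-phosphate, had 17.8 to 23.6 CPM in WT and 28.2 to 42.3 CPM in KSR23, a log2 fold change of 0.72 (SE 0.113, adjusted p = 9.31e-05 by edgeR). The phosphomannomutase genes Pmm2 and Pmm1 rose by 0.38 (adjusted p = 0.000660 by edgeR) and 0.39 (adjusted p = 0.0217 by edgeR), and all 3 genes showed no overlap between groups, as did 19.4% of all genes tested. The call of Pmm1 was lost in 3 of 19 alternatives, without WT replicate 2 (0.34), without WT replicate 4 (0.36) and without KSR23 replicates 2 and 3 (0.37). Gmppb, which encodes the catalytic subunit of GDP-mannose pyrophosphorylase, had a log2 fold change of -0.20 (-0.40 to 0.01), and neither it nor Gmppa, the gene of a regulatory subunit, passed the test. Over the 11 genes of both supply lists, 6 rose and 2 fell, again beside 16.2% and 14.8% of all genes tested.

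**Figure D3:**
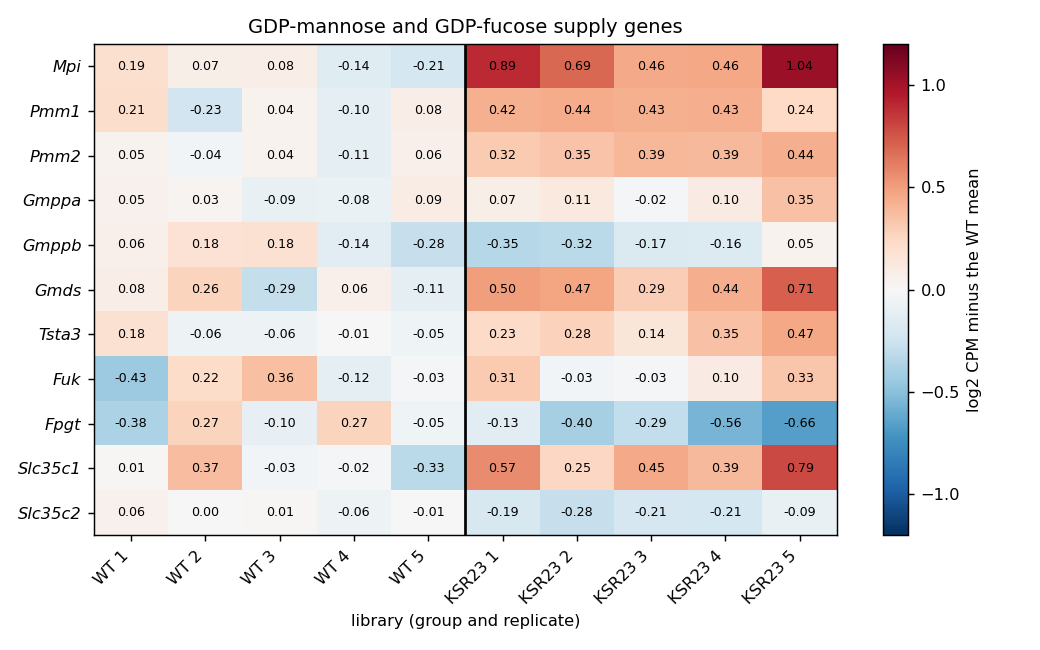
Log2 CPM of the 11 GDP-mannose and GDP-fucose supply genes in each of the 10 libraries, minus the mean of the 5 WT libraries of that gene, with the value printed in each cell and a colour scale from -1.2 (blue) to 1.2 (red). Mpi, Pmm1, Pmm2 and Gmds are above the WT mean in all 5 KSR23 libraries and above every WT library, and Fpgt and Slc35c2 are below the WT mean in all 5.

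The other fucosyltransferase genes were close to absent. Fut7 had at most 7 counts and Sec1 at most 6 counts in any library, and Fut9 had 12 counts in WT replicate 3 and 0 in the 9 other libraries. None of the 3 was tested. Of the 5 genes whose products extend O-linked fucose, B4galt1 rose by 0.37 (adjusted p = 0.000778 by edgeR), Lfng, a Notch-modifying Fringe gene, fell by 0.35 (adjusted p = 0.00838 by edgeR), and Mfng, Rfng and B3glct did not pass the test. Of the 2 fucosidase genes, Fuca2 fell by 0.26 (adjusted p = 0.00740 by edgeR), a call that was lost with scaling by library size alone (-0.17), and Fuca1 was not called.

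The enzymes that build the chains on which fucose is placed, or that cap the same ends with sialic acid, also moved in both directions. Of the 8 genes of N-glycan core steps, Mgat4a (0.82) and Man2a2 (0.49) rose and Man2a1 (-0.77) and Mgat1 (-0.18) fell on the log2 scale, and the call of Mgat1 was lost in 14 of 19 alternatives. Of the 11 acceptor chain genes tested, B4galt4 (0.75), B3gnt7 (0.68) and B3gnt3 (0.50) rose and Gcnt1 (-0.95), a core 2 O-glycan branching enzyme gene, fell, and the call of B3gnt7 was lost in 9 of 19 alternatives and that of B3gnt3 in 1, without KSR23 replicates 2 and 3 (0.38). Of the 6 sialyltransferase genes, St3gal4 (0.80) and St3gal1 (0.65) rose and St3gal3 (-0.73) fell. Over all 46 of these other pathway genes, 41 were tested, 12 rose, 8 fell and 21 did not pass the test, or 20 of 41 called beside 31.0% of all genes, with a median log2 fold change of 0.12. Members and lists were chosen with earlier results known, so these counts are descriptions.

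**Figure D4:**
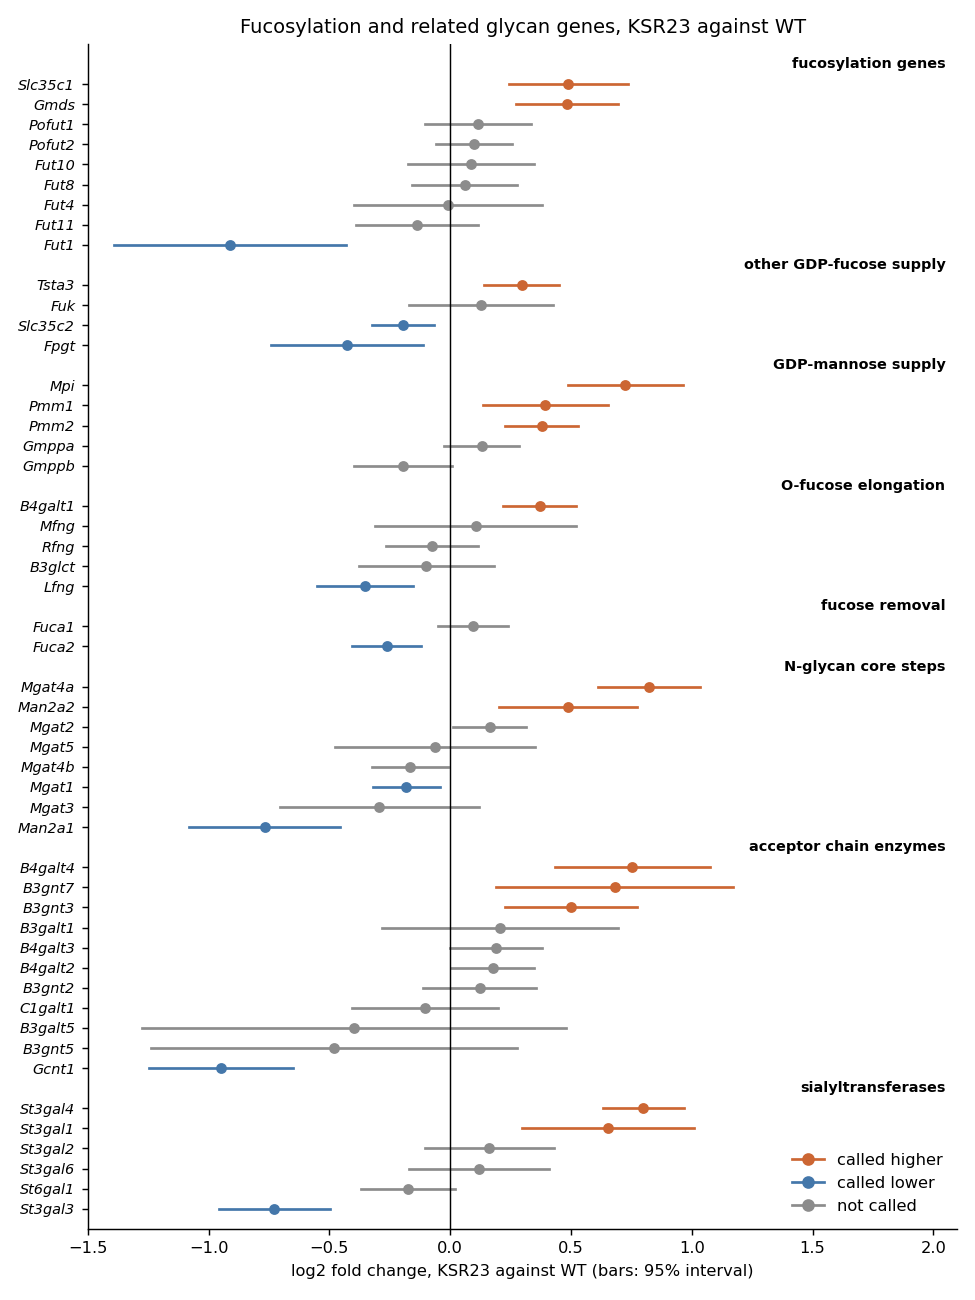
Log2 fold changes of KSR23 against WT (points) with 95% intervals (bars) for the 9 fucosylation genes and 41 other pathway genes tested, grouped by role, with genes called higher in orange, called lower in blue and not called in grey. Among the fucosylation genes, the whole intervals of Slc35c1 (0.49) and Gmds (0.48) lie above 0 and that of Fut1 (-0.91) lies below it.

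By the fixed rule, the genes whose log2 CPM followed most closely that of Gmds, the member of lowest adjusted p, were Tmem161a, Gle1, Mtmr14, Ppil2 and Sf1. Their Pearson r with Gmds was 0.952 to 0.975 over the 10 libraries, as a description over both groups together, which differ for all of these genes. Their log2 fold changes were 0.24 to 0.51.

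The RNA came from whole tissue, in which fewer cells of a type and less RNA per cell cannot be told apart. The 6 acinar marker genes all fell, and their summed level was 111059 to 125010 CPM in WT and 59792 to 77329 CPM in KSR23. Of the 6 duct marker genes 5 rose, with Krt19 as the exception (-0.05), and their summed level was 931 to 1044 CPM in WT and 1541 to 1702 CPM in KSR23. Of the 7 myeloid marker genes 6 rose (213 to 282 CPM summed in WT, 263 to 624 CPM in KSR23). The 6 islet marker genes had 1 rise and 5 falls. Of the 3 lymphoid genes tested, Cd3e fell to 0.353 of its WT level and 2 were not called. The lymphoid sums were 5.54 to 7.56 CPM in WT and 2.87 to 5.87 CPM in KSR23. Cd3d, too low to be tested, went the other way without overlap, from a mean of 0.110 CPM in WT to 0.447 CPM in KSR23. Cd8a, Nkg7 and Ms4a1, also not tested, had higher means in KSR23 as well. Of 4 endothelial genes 1 rose and 2 fell (141 to 157 CPM summed in WT, 136 to 150 CPM in KSR23), and of 4 stromal genes 1 rose (6855 to 8584 CPM in WT, 6310 to 8287 CPM in KSR23). Marker genes and fucosylation genes were called between the same groups, and the part of the marker lists in the results was not tested. Of the interleukin-22 receptor genes, Il10rb rose by 0.32 on the log2 scale, and Il22ra1 had 7.03 CPM in WT and 5.17 CPM in KSR23 and did not pass the test (adjusted p = 0.0768 by edgeR). The signalling gene Stat3 and its target Socs3 rose by 1.12 and 2.65 on the log2 scale.

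Total counts on genes were 26830235 to 33189132 in WT and 16715976 to 57784136 in KSR23 libraries. The intestinal marker list summed to 5.67 to 7.82 CPM in WT and 7.48 to 23.2 CPM in KSR23, and KSR23 replicate 2 held 406 counts of its gene Apoa4, against at most 25 in any other library. The same library held 63 counts of Alpi and 55 of Fabp2, against at most 6 and 8 elsewhere, and the 3 counts of Cdx2, a gene at 0 in the other libraries. Of the 8 intestinal genes, Apoa4 and Vil1 were tested and both rose. KSR23 replicate 3, the smallest library, held 76.4 CPM of the neutrophil gene S100a8, against at most 17.6 CPM elsewhere. Without both libraries, a comparison added after the data were seen, the 3 calls held, with log2 fold changes of 0.55 for Gmds, 0.58 for Slc35c1 and -0.84 for Fut1. The log2 fold of the Fut2 means was then 1.90, and KSR23 replicate 2 had the lowest Fut2 level of its group. Of the red cell genes, Hba-a1, Hba-a2, Hbb-bs and Hbb-bt were at 0 counts in all 10 libraries, and Alas2 was not called.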

How the data were processed

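RNA of P5 pancreas was analyzed in 10 libraries, 5 WT and 5 KSR23, of single-end 75-base reads. Per the submitters' processing notes, the authors used TopHat2 2.1.0 with mm10 and HTSeq 0.6.1p1, and they deposited raw counts of reads per gene. The annotation release and the strand setting are not given in the sources used here. The tallies of alignments given to no gene were kept out of library sizes and tests, and reads without a feature were 4.89% to 6.36% of the uniquely aligned reads.

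Genes counted 5 times or more in each library were tested with edgeR 4.0.16 in R 4.3.3 (TMM scaling, quasi-likelihood F test, Benjamini-Hochberg adjustment over all genes, adjusted p under 0.05). CPM use the TMM-scaled library sizes. The SE is the log2 fold change divided by the square root of F. Fut2 and the Fut2 to Fut1 ratio were compared by two-sided exact permutation tests. The edgeR test was checked on simulated counts in which few genes changed and all genes had the same dispersion, a simpler setting than these data. Positions and lengths are those of GENCODE M21, and promoters are those of RefSeq. Alternatives were DESeq2 1.42.0, edgeR's likelihood ratio test, other scalings and filters, a replicate block and leaving out libraries. Counts from PCR-amplified reads carry no molecular identifiers, so floors cover counting error only. The labels name separate samples without saying which mice share a litter. The tests treated the mice as independent, so p-values may be too small if some share a litter.

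The members and lists were chosen with earlier results of these data known. All 10 members are named. In each other pathway list, genes called are named or counted, and at most 4 that are no members are given with values, those of lowest adjusted p. Marker lists are given as counts and summed CPM, and the single markers and signalling genes named beside them were chosen after their values were seen. The 5 genes most like the member of lowest adjusted p were taken by Pearson r.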

Additional observations from a re-analysis of the deposited data

Results flagged for a closer look

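For the 10 fucosylation genes, the 9 other supply genes and the Fut2 to Fut1 ratio, 1 library lay far from the other 4 in 3 of 40 groups of 5 libraries, and chance gives about 1 in 20 groups, or 2 of 40. Fut2 in KSR23 replicate 1 had 1.33 CPM, above the 0.415 to 0.679 CPM of the other KSR23 libraries. Tsta3 in WT replicate 1 had 64.5 CPM, above the 54.5 to 56.8 CPM of the other WT libraries. Pmm1 in KSR23 replicate 5 had 5.89 CPM, below the 6.66 to 6.79 CPM of the other KSR23 libraries and above every WT library.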

How the results depend on the processing

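The calls of Gmds, Slc35c1 and Fut1 held in all 19 alternatives, with log2 fold changes of 0.41 to 0.57, 0.40 to 0.59 and -1.09 to -0.76, and no other of the 9 members tested was called in any of them. Fut2 stayed higher in KSR23 in 15 of 15 alternatives (log2 fold of 1.22 to 1.90) and the Fut2 to Fut1 ratio in 12 of 12 (difference of 1.83 to 2.58). The 15 include the fit after edgeR's default filter, which Fut2 passed through its KSR23 libraries. Signs turned only among members without a call. The log2 fold change of Fut4 was 0.0901 with library size alone and ran from -0.121 to 0.0912 with 1 library left out, with a positive sign without WT replicate 3 or 5 or KSR23 replicate 3, 4 or 5. That of Fut8 ran from -0.0726 to 0.127 with 1 library left out, the lowest without KSR23 replicate 1, and up to 0.189 over all alternatives, and that of Pofut1 was -0.0193 without KSR23 replicates 2 and 3. Pathway genes called lower numbered 8, against 4 with library size alone, 5 with the replicate block, 5 without KSR23 replicates 2 and 3, and 5 to 8 with 1 library left out, the 5 without KSR23 replicate 2. The cause was not tested.

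Scaling by library size alone gave 3075 genes higher and 1161 lower, 72.6% of calls higher against 52.3%, and moved the median log2 fold change of all genes from -0.01 to 0.09. With no filter, 22.9% of 19227 genes were called. Labels give both groups replicate numbers 1 to 5, and same-numbered libraries deviated together with r of -0.109 to 0.0665 over 13882 genes, so the numbers were not taken as pairs. The replicate block called 1998 genes higher and 1751 lower, against 2250 and 2049, and of the supply genes it lost the calls of Fpgt (adjusted p = 0.0749) and Slc35c2 (adjusted p = 0.0533). Depth limits Fut2, Fut7, Fut9 and Sec1, which had too few counts to be tested with the rest.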
